A study of Oryctolagus cuniculus with 16 samples.

Results

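The growth factor genes BMP2 and FGF2 were followed in rabbit vein grafts through all of their probes on the array. They are 2 of the 2127 genes that could be named, and they held 13 of the 43603 probes. BMP2 had 8 probes, found through its RefSeq transcript. FGF2 had 5 probes, found through an Ensembl transcript. The part of the authors' table that was readable here lists 1 of these 5 probes, A_04_P004862, with the FGF2 gene identifier, and the other 4 were named through the transcript they share with it. The question was how the RNA of each factor changed in a vein after it had been grafted, and whether the probes of a gene gave the same answer.

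The arrays came from male rabbits (Oryctolagus cuniculus) and held total RNA of vein tissue, labelled with Cy3. Vein grafts removed on day 1 gave 6 arrays, vein grafts removed on day 7 gave 6, and 4 arrays came from a control group that underwent sham surgery. No genotype, strain, age or drug was named in the labels, and neither was the vein that served as graft. An array measures the whole tissue, so that fewer cells of a type and less RNA per cell cannot be told apart.

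BMP2 is a secreted ligand of the bone morphogenetic protein family. It binds serine/threonine kinase receptors of type I and type II, which phosphorylate SMAD proteins, and secreted antagonists such as noggin block it. In the vessel wall it is known as a product of endothelial and smooth muscle cells and for its role in vascular calcification. FGF2, or basic fibroblast growth factor, binds heparan sulphate and tyrosine kinase receptors of the FGFR family, which signal through the adaptor FRS2 and the MAP kinases. It is a mitogen of endothelial and smooth muscle cells that is stored in the vessel wall.

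The number of probes well above background lay between 32973 and 36319 per array, and 35762 probes entered the tests. All 13 probes of BMP2 and FGF2 were well above background on all 16 arrays, and none of their spots was saturated or flagged. Within the day 1 and the day 7 group, the arrays fell into 2 sets of 3 whose log2 signals differed by less than the spread between spots of the same probe on an array. The SD of these differences was 0.12 to 0.17, against 0.24 to 0.25 for spots. Each set was therefore averaged and counted as 1 sample, which left 4 sham samples beside 2 for each of the graft times. The labels do not say whether samples came from separate animals, so that the p-values measure only the spread between these samples. The sham samples stood apart in pairs. Over the array, the SD of log2 differences was 0.31 between samples 1 and 2 and 0.26 between samples 3 and 4. It was 0.76 to 0.77 between samples of different pairs, so that the 4 sham samples did not vary as 4 like ones. Samples 3 and 4 were higher than samples 1 and 2 in all 8 BMP2 probes, by 0.35 to 0.66 in log2 signal, and lower in all 5 FGF2 probes, by 0.21 to 0.41. Cell type markers, described further on, also differed between the pairs. In samples 3 and 4 the mean log2 signal of smooth muscle markers was lower (14.78 and 14.80, against 16.12 and 16.11 in samples 1 and 2), and so was that of fibroblast and matrix markers (16.41 and 16.42, against 16.96 and 17.10). Adipocyte markers were higher there (7.76 and 7.65, against 6.88 and 6.98), as were leukocyte markers (8.32 and 8.25, against 7.82 and 7.68) and, by less, endothelial markers (8.93 and 8.91, against 8.81 and 8.82). The part of these markers in the results was not tested. All sham arrays were scanned together and apart from the grafts, so that scan and surgery cannot be told apart in any comparison with sham. Each set of 3 graft arrays shared 1 position number in the file headers. Day 1 arrays had positions 1 and 2 and day 7 arrays 3 and 4, so that position and graft day cannot be told apart.

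BMP2 fell from sham to day 1 and again from day 1 to day 7, in every one of its 8 probes. The order of the groups was the same throughout: highest in sham, lower on day 1 and lowest on day 7. The probe with the highest mean signal, A_04_P000297, had log2 signals of 13.24, 13.34, 13.91 and 13.91 in the sham samples, 11.78 and 11.78 on day 1, and 9.63 and 9.73 on day 7. No sample of any group lay within the range of another group. The same was true of all 8 probes, and 6.61% of all probes had their groups in this order without overlap. The group means of this probe were 13.60 ± 0.36 (SD, n = 4) in sham, 11.78 ± 0.0047 (n = 2) on day 1 and 9.68 ± 0.070 (n = 2) on day 7.

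**Figure D1:**
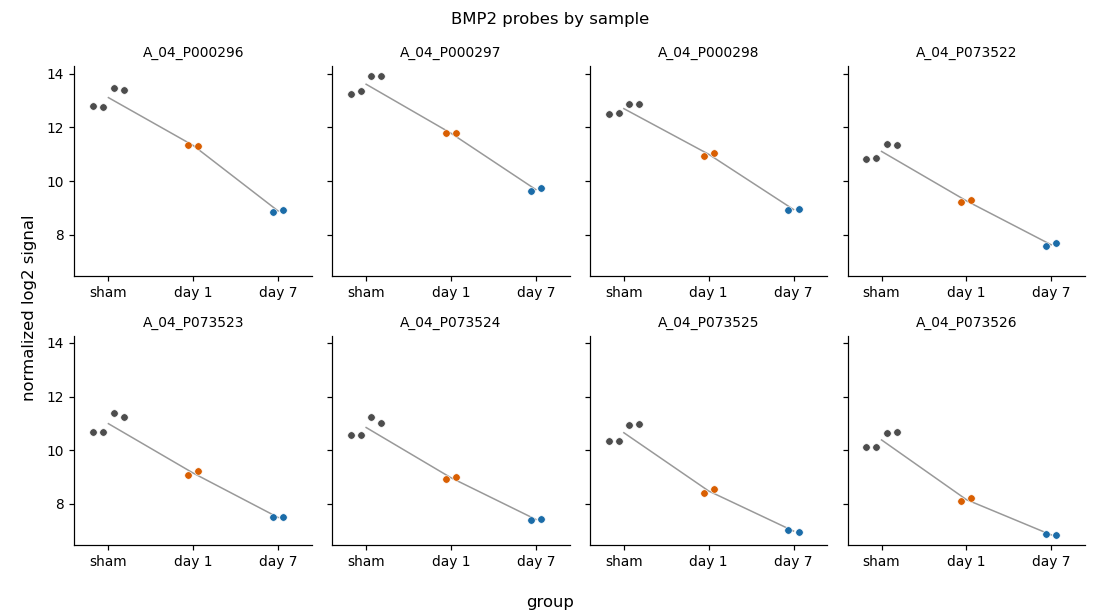
BMP2 probes. Each panel is a probe, the vertical axis gives the normalized log2 signal, points are samples (4 sham, 2 day 1, 2 day 7) and the line joins the group means. In all 8 panels the samples of the 3 groups are separate and fall from sham to day 1 to day 7, as in 6.61% of all probes.

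On day 1, A_04_P000297 was 3.54-fold lower than in sham (log2 change -1.82, SE 0.22, limma adjusted p = 2.15e-04). All 8 BMP2 probes were called lower, where 24.6% of all probes tested were called lower in this comparison. A probe was called when its Benjamini-Hochberg adjusted p was below 0.05 and its log2 change was at least 1 in size. The changes ran from -2.22 to -1.70, with a median of -1.84. They correspond to 3.24-fold to 4.67-fold lower signal, with limma adjusted p between 3.04e-05 and 3.03e-04. The smallest change was that of A_04_P000298, which went from 12.50, 12.54, 12.85 and 12.88 in sham to 10.94 and 11.05, with both day 1 samples below all sham samples, as in 38.7% of all probes. Against sham samples 3 and 4 alone the median was -2.14, and against samples 1 and 2 alone it was -1.55, with all 8 probes called in both cases.

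By day 7, the signal of A_04_P000297 was 15.1-fold below sham (log2 change -3.92, SE 0.22, limma adjusted p = 8.96e-06). Here too all 8 probes were called lower, where 15.4% of all probes tested were. The change was largest in A_04_P000296, whose sham samples at 12.78, 12.77, 13.46 and 13.41 stood against 8.86 and 8.91 on day 7. All day 7 samples were below all sham samples in 34.1% of all probes. It amounted to -4.22 (SE 0.23), or 18.6-fold, and 1.40% of all probes changed by as much or more in this direction. The smallest change was that of A_04_P073524, from 10.55, 10.58, 11.22 and 11.03 in sham to 7.39 and 7.46, which gave -3.42 (SE 0.21) or 10.7-fold. The median over the 8 probes was -3.60, and it was -3.87 against sham samples 3 and 4 alone and -3.31 against samples 1 and 2 alone. All 8 probes were called against either pair.

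In the comparison of day 7 with day 1 the sham samples do not enter the change, though they share in the spread that the test uses. All 8 BMP2 probes were called lower on day 7, where 18.9% of all probes tested were, with changes from -2.44 to -1.31 and a median of -1.64. A_04_P000297 changed by -2.10 (SE 0.25, limma adjusted p = 3.52e-04), a 4.28-fold decrease in normalized signal. Before normalization the day 7 arrays were brighter, with a median 75th percentile of 2652 units against 942 on day 1. The median raw intensity of A_04_P000297 was 2159 units on day 1 and 1347 on day 7. Both day 7 samples of every BMP2 probe lay below both day 1 samples, as they did in 46.1% of all probes. With the background corrected by normexp, A_04_P073526 changed by -0.87 and was no longer called, a correction that adds an offset of 50 intensity units to each signal.

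FGF2 changed by less than BMP2 on day 1 against sham. No FGF2 probe was called then, where 24.6% of all probes tested were called lower, although 3 of the 5 passed the adjusted p alone. By day 7 all 5 were called lower, where 15.4% of all probes tested were. For A_04_P004865, the probe with the highest mean signal, the sham samples had log2 signals of 7.88, 7.91, 7.77 and 7.56, the day 1 samples 7.47 and 7.62, and the day 7 samples 6.51 and 6.48. The day 1 samples overlapped with sham, and the day 7 samples were below both groups. The day 7 samples were below all others in all 5 FGF2 probes and in 17.3% of all probes. Its means were 7.78 ± 0.16 (n = 4) in sham, 7.55 ± 0.11 (n = 2) on day 1 and 6.49 ± 0.023 (n = 2) on day 7.

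**Figure D2:**
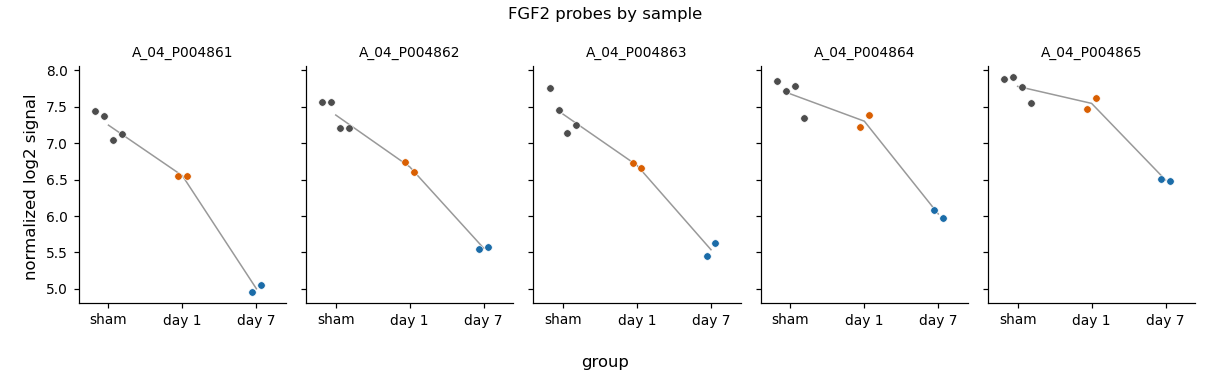
FGF2 probes. Each panel is a probe, the vertical axis gives the normalized log2 signal, points are samples (4 sham, 2 day 1, 2 day 7) and the line joins the group means. The day 7 samples lie below all other samples in all 5 panels, as in 17.3% of all probes, while the day 1 samples of A_04_P004864 and A_04_P004865 overlap with sham.

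Between sham and day 1, the log2 changes of the 5 FGF2 probes ran from -0.71 to -0.23, with a median of -0.69. By unadjusted limma p-values, 4 of the 5 were below 0.05, and 3 after adjustment. For A_04_P004865 the change was -0.23 (95% interval -0.53 to 0.06, limma adjusted p = 0.126). The day 1 samples of A_04_P004864, at 7.22 and 7.38, also overlapped with sham, at 7.85, 7.72, 7.79 and 7.35, and its change was -0.37 (limma adjusted p = 0.0626). A_04_P004861, A_04_P004862 and A_04_P004863 differed from sham by -0.69, -0.71 and -0.70, with limma adjusted p of 0.00246, 0.00327 and 0.00896. They fell short of the fold threshold. Their day 1 samples lay below all sham samples, as in 38.7% of all probes. Scaling each array to its 75th percentile in place of quantile normalization turned the change of A_04_P004865 to 0.022 (limma adjusted p = 0.896). That scaling moved the median change of all probes from 0.12 to 0.47 in this comparison. Relative to that median, the 5 FGF2 probes lay between -0.74 and -0.45 under percentile scaling and between -0.83 and -0.35 under quantile normalization. The calls of all probes shifted with it, as 49.4% of called probes were lower under quantile normalization and 35.9% under percentile scaling.

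On day 7, A_04_P004865 was 2.44-fold lower than in sham (log2 change -1.29, SE 0.12, limma adjusted p = 1.14e-04). The largest change of an FGF2 probe was that of A_04_P004861. Its sham samples measured 7.45, 7.37, 7.05 and 7.13, its day 1 samples 6.55 and 6.56, and its day 7 samples 4.96 and 5.05. Its groups were fully separate in this order, as in 6.61% of all probes. It changed by -2.25 (SE 0.13), or 4.75-fold, with a limma adjusted p of 1.18e-05. The samples of A_04_P004862 and A_04_P004863 were also separate at each step, with day 7 levels of 5.54 and 5.57 for the former and 5.45 and 5.62 for the latter. Their changes were -1.83 and -1.86, with limma adjusted p of 4.47e-05 and 1.09e-04. A_04_P004864, at 6.09 and 5.97 on day 7, changed by -1.65 (limma adjusted p = 1.04e-04). The median over the 5 probes was -1.83, against -1.65 with sham samples 3 and 4 alone and -2.01 with samples 1 and 2 alone, and all 5 were called against either pair.

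From day 1 to day 7 all 5 FGF2 probes were called lower, where 18.9% of all probes tested were. Their changes were -1.55 to -1.05, with a median of -1.16. A_04_P004865 was the nearest to the fold threshold, at -1.05 (SE 0.14, limma adjusted p = 6.18e-04), and without day 1 sample 2 it changed by -0.98 and was not called. The median raw intensity of the FGF2 probes lay between 39.6 and 212 units in the 3 groups. For A_04_P004865 it was 134 units on day 1 and 115 on the brighter day 7 arrays, so its fall depends on the normalization. With normexp background correction and its offset of 50 units, none of the 5 probes was called in either comparison. Their changes from sham to day 7 were then -0.96 to -0.68, with limma adjusted p of 9.09e-04 or less, and their changes from day 1 to day 7 were -0.70 to -0.45.

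**Figure D3:**
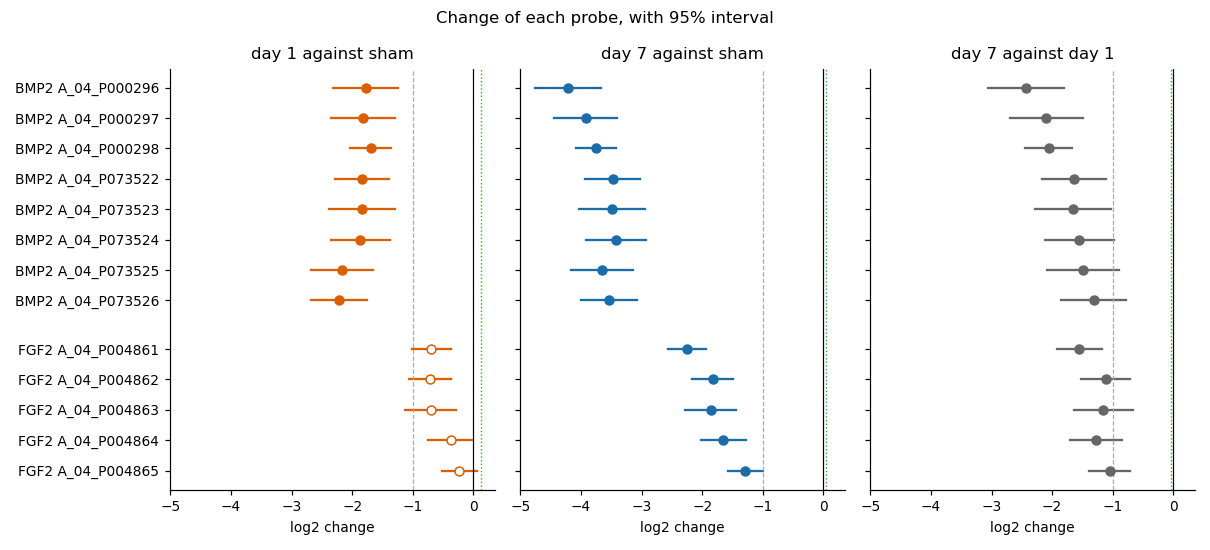
Log2 change of each BMP2 and FGF2 probe in the 3 comparisons, with its 95% interval from limma. Filled points are called, the dashed line marks a change of -1 and the dotted line the median change of all probes. All 8 BMP2 points are filled in the 3 panels, and the 5 FGF2 points are open on day 1 against sham and filled elsewhere. Of all probes tested, 24.6% were called lower on day 1 against sham, 15.4% on day 7 against sham and 18.9% between the graft times.

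The timing of the fall was then set side by side for both genes. Both comparisons with sham use the same 4 sham samples, so that their values are not independent. The change on day 1 made up 42.2% to 62.9% of the change on day 7 in the 8 BMP2 probes, with a median of 52.8%. In the 5 FGF2 probes it made up 18.2% to 38.9%, with a median of 30.9%. These ranges run over probes measured in the same samples, so that they are not a spread between samples, and their difference was not tested. They do not overlap with all sham samples, nor with sham samples 3 and 4 alone (46.4% to 65.5% for BMP2 and 10.2% to 32.2% for FGF2). With sham samples 1 and 2 alone they do, at 37.4% to 59.8% for BMP2 and 24.9% to 44.4% for FGF2. The changes behind these shares also moved with the processing. Under percentile scaling the medians on day 1 and day 7 against sham were -0.24 and -2.20 for FGF2 and -1.83 and -3.77 for BMP2. Under normexp background correction they were -0.32 and -0.79 for FGF2 and -1.65 and -2.88 for BMP2.

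The changes of the genes were compared between their probes with the highest mean signal, which for FGF2 is the probe that changed least against sham. The change of BMP2 minus the change of FGF2 was -1.59 on day 1 against sham (95% interval -2.27 to -0.91, limma adjusted p = 0.00599). It was -2.63 on day 7 against sham (95% interval -3.32 to -1.95, limma adjusted p = 0.0013). Between the graft times it was -1.05, with a 95% interval of -1.83 to -0.26, and did not pass the adjusted threshold (limma adjusted p = 0.0587). This last difference passed in 11 of 21 other settings, with changes from -1.28 to -1.05 in those. Some of them counted all 16 arrays as separate samples. Over all settings, passed or not, the change ran from -1.28 to -0.54. Between the graft times the probes of the genes overlapped, as A_04_P004861 of FGF2 changed by -1.55 and A_04_P073525 and A_04_P073526 of BMP2 by -1.49 and -1.31. Under percentile scaling the medians of this comparison were -1.93 for FGF2 and -1.90 for BMP2. The comparison of the genes was added after their values had been seen.

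The probes of BMP2 did not all change by the same amount. The difference between the change of A_04_P000297 and that of each other BMP2 probe was tested in the same model, beside all such pairs on the array. A pair was counted on its adjusted p alone, and the pairs of a gene share their brightest probe. On day 1 against sham, 2 of 7 BMP2 pairs passed, where 28.4% of all pairs on the array did. On day 7 against sham 5 of 7 passed, where 20.0% did, and on day 7 against day 1 it was 6 of 7, where 26.1% did. None of these differences reached 1 on the log2 scale.

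From day 1 to day 7, A_04_P000296, A_04_P000297 and A_04_P000298 decreased by -2.44, -2.10 and -2.06. The 5 probes from A_04_P073522 to A_04_P073526 decreased by -1.64, -1.65, -1.55, -1.49 and -1.31. The widest gap was that between A_04_P000297 and A_04_P073526. On day 1 A_04_P073526 had already changed by -2.22, from 10.11, 10.12, 10.64 and 10.67 in sham to 8.11 and 8.21, and it ended at 6.87 and 6.83 on day 7. The difference of A_04_P000297 from it was 0.40 on day 1 against sham (SE 0.077, limma adjusted p = 0.00789), -0.79 on day 7 against day 1 (SE 0.089, limma adjusted p = 8.45e-04) and -0.39 on day 7 against sham (SE 0.077, limma adjusted p = 0.0138). The difference on day 1 was lost with normexp background correction (0.039, limma adjusted p = 0.671) and without day 1 sample 1 (0.35, limma adjusted p = 0.0701). The division of the BMP2 probes into these sets was made after their values had been seen and was not tested, and no probe sequence was used here.

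On day 7 against sham, the difference from A_04_P073526 was 0.082 under percentile scaling (limma adjusted p = 0.457) and was also lost without day 7 sample 1 (-0.32, limma adjusted p = 0.0855). The difference on day 7 against day 1 passed the threshold in all 21 other settings for A_04_P073522, A_04_P073524, A_04_P073525 and A_04_P073526, whereas A_04_P073523 passed in 18 and A_04_P000296 in 16. Over the 8 probes, BMP2 changes spanned 1.13 on day 7 against day 1. The median span was 0.42 over the 2130 genes or transcripts without a gene name that had 5 to 8 kept probes, of which 15.8% had a wider one. BMP2 had 8 probes, the most in that range, and the number of probes was not matched.

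In FGF2, the probe with the highest mean signal changed least. The 5 changes spanned 0.48 on day 1 against sham, 0.50 on day 7 against day 1 and 0.96 on day 7 against sham. Of the genes or unnamed transcripts with 5 to 8 kept probes, 41.6%, 42.6% and 12.0% had a wider span in the same order, again without matching the number of probes. A_04_P004865 differed from each of the 4 other probes on day 7 against sham, by 0.36 to 0.96. All 4 pairs passed, where 20.0% of all pairs on the array did. The widest difference was that from A_04_P004861, at 0.96 (SE 0.11, limma adjusted p = 0.00134), which passed in all 20 other settings of that comparison. The pair with A_04_P004862 passed in 15 of these settings, that with A_04_P004863 in 8 and that with A_04_P004864 in 11, and the last 2 were lost when only the compared groups were fitted (limma adjusted p = 0.0508 and 0.051). On day 1 against sham 2 of 4 pairs passed, where 28.4% of all pairs did, with differences of 0.46 from A_04_P004861 and 0.48 from A_04_P004862. On day 7 against day 1 only the pair with A_04_P004861 passed, at 0.50 (limma adjusted p = 0.0227), where 26.1% of all pairs did. With normexp background correction its difference was -0.027 (limma adjusted p = 0.828). It was also lost on leaving out any of the 4 graft samples, with differences of 0.43 and 0.57 without day 1 sample 1 or 2 and of 0.44 and 0.56 without day 7 sample 1 or 2 (limma adjusted p = 0.12, 0.0518, 0.106 and 0.0521).

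**Figure D4:**
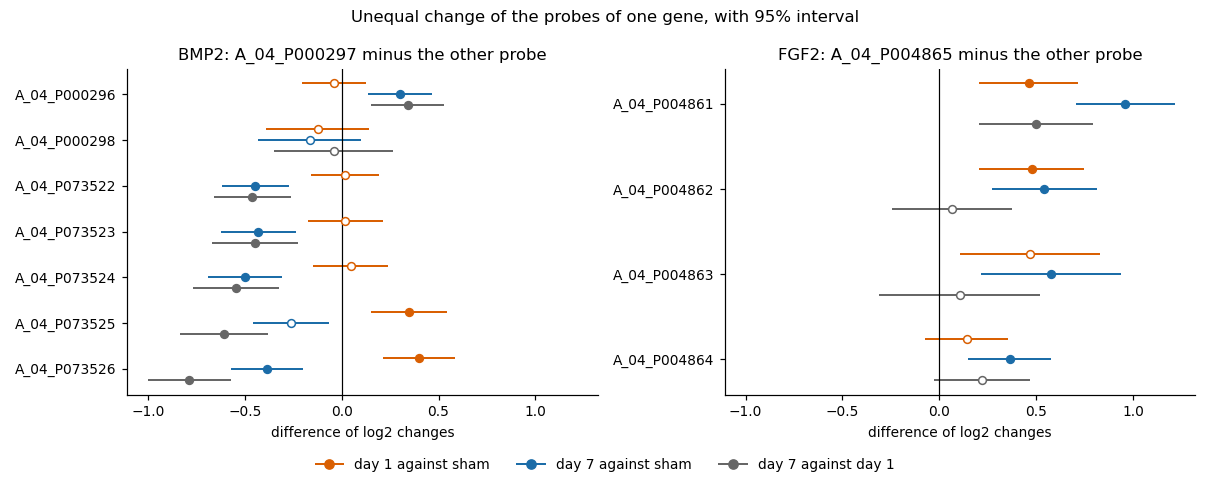
Difference between the log2 change of the probe with the highest mean signal and that of each other probe of BMP2 (left) or FGF2 (right), with 95% intervals. Filled points have an adjusted p below 0.05. For BMP2, points of day 7 against day 1 reach -0.79 at A_04_P073526, and for FGF2 all points lie above 0, up to 0.96 at A_04_P004861.

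Other genes of the BMP pathway were taken from a list of 38, of which 5 had a named probe and were kept. Each gene was read by its kept probe with the highest mean. On day 1 against sham 2 of the 5 were called lower and 2 higher, with a median change of -0.85. Among all 2001 named genes, 516 were called lower and 506 higher, with a median of 0.12. On day 7 against sham 2 of 5 were lower and 1 higher (median -0.47), where 335 of 1998 named genes were lower and 371 higher (median 0.01). On day 7 against day 1 it was 1 of 5 in each direction (median 0.37), where 412 named genes were lower and 407 higher (median -0.06).

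Among the ligands, BMP4 was lower in the grafts at both times. Its log2 signals of 13.43 to 15.16 in sham fell to 10.49 and 10.53 on day 1 and to 10.73 and 11.15 on day 7, changes of -3.77 and -3.33 (limma adjusted p = 4.77e-04 and 0.00135). From day 1 to day 7 BMP4 changed by 0.44 (limma adjusted p = 0.56), where BMP2 fell. BMP7, another ligand of the family, measured 9.47 to 10.52 in sham, 5.86 and 5.94 on day 1, and 8.76 and 8.78 on day 7. It fell by 4.12 on day 1 and rose by 2.87 from day 1 to day 7 (limma adjusted p = 2.63e-05 and 5.68e-04). On day 7 it still differed from sham by -1.25 (limma adjusted p = 0.0145), with 2 of its 5 probes called lower. That call was lost without day 7 sample 1 (-1.26, limma adjusted p = 0.0741) or without day 7 sample 2 (-1.24, limma adjusted p = 0.0761), and against sham samples 1 and 2 alone (-0.76).

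GDF2, or BMP9, is a circulating ligand that acts on endothelial cells. It rose by 2.06 on day 1 (limma adjusted p = 5.87e-05) and was 1.39 above sham on day 7 (limma adjusted p = 7.35e-04), but with normexp background correction it changed by 0.66 and 0.34 and was not called. NOG encodes noggin, which binds and blocks BMP ligands. It measured 5.12 to 5.34 in sham, 7.49 and 7.60 on day 1, and 4.99 and 5.38 on day 7. NOG rose by 2.33 on day 1 and fell by 2.36 from day 1 to day 7 (limma adjusted p = 4.78e-06 and 2.05e-05), and on day 7 it differed from sham by -0.03 (limma adjusted p = 0.874). The type II receptor gene ACVR2A was called in none of the comparisons by its brightest probe, with changes of -0.85, -0.47 and 0.37, although 4 of its 7 kept probes were called lower on day 1 against sham and 4 were called higher on day 7 against day 1, by up to 1.93. The receptors BMPR1A, BMPR1B and BMPR2 were not analysed here, since neither the accessions nor the readable part of the authors' table gave a probe for them.

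For the FGF pathway, 43 genes were listed, 7 had a named probe and 6 were kept. On day 1 against sham 2 were called lower and 1 higher (median -0.64), as on day 7 against sham (median 0.41), and on day 7 against day 1 it was 1 in each direction (median -0.02). FGF7, the ligand also called keratinocyte growth factor, went against FGF2 after day 1. Its log2 signals were 10.01 to 10.64 in sham, 9.17 and 9.34 on day 1, and 12.53 and 12.98 on day 7. FGF7 rose by 3.50 from day 1 to day 7 and was 2.52 above sham (limma adjusted p = 2.83e-05 and 5.96e-05), in all of its 6 kept probes. On day 1 its brightest probe changed by -0.98, while the other 5 were called lower.

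The receptor gene FGFR2 was well above background on all sham arrays and not well above background on any graft array. Its fitted changes against sham were -3.06 on day 1 and -2.83 on day 7 (limma adjusted p = 9.43e-04 and 0.00202). They include graft signals that were not well above background. Against the lowest signal well above background, FGFR2 was at least 1.61-fold lower than in sham on day 1 and at least 1.56-fold on day 7. These bounds were not tested and are below the fold threshold, though FGFR2 counts above among the genes called lower. With normexp background correction both calls were lost, at -0.35 and -0.29. The adaptor FRS2 rose by 1.26 on day 1 (limma adjusted p = 4.86e-05), which was 0.86 and not called with normexp. FOS, an immediate early target of growth factors, fell by 2.09 on day 1 and by 3.14 on day 7 against sham (limma adjusted p = 2.40e-05 and 6.80e-06), and from day 1 to day 7 its change was -1.05 (limma adjusted p = 0.00254), which became -0.99 and was not called without day 7 sample 1. The kinase gene MAP2K1 and the MAP kinase phosphatase gene DUSP6 were not called in any comparison by their brightest probe, with changes of -0.31 to 0.99 and -0.27 to 0.60. Of their 5 kept probes each, 3 of MAP2K1 were called higher on day 7 against day 1 and 1 of DUSP6 on day 1 against sham. FGFR1 was not analysed here for the same lack of a name in these sources.

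**Figure D5:**
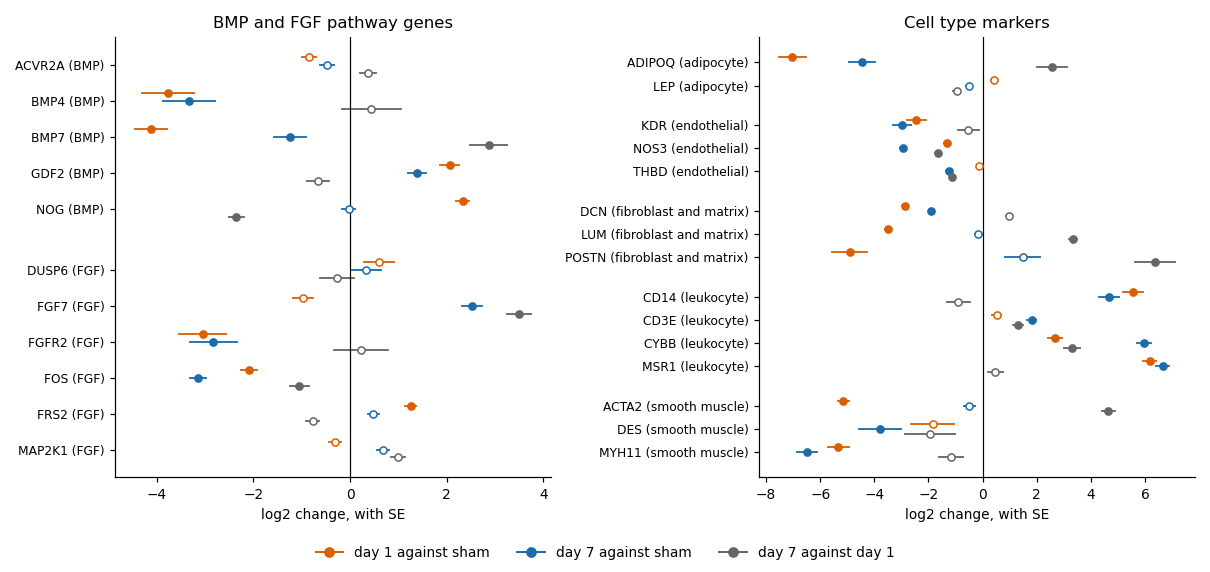
Log2 change, with SE, of the BMP and FGF pathway genes (left) and of the cell type markers (right) in the 3 comparisons, each gene by its kept probe with the highest mean. Filled points are called, and FGFR2, KDR and, on day 1, ADIPOQ were not well above background in the grafts. BMP4 lies below 0 in both comparisons with sham, while FGF7 and the leukocyte markers lie above 0 on day 7 against sham.

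Markers of several cell types also differed between the groups, and their part in the results was not tested. The mean of the endothelial markers was lower at each step, while the means of the other lists were higher on day 7 than on day 1. Single markers did not all follow the mean of their list. Of 8 endothelial markers 3 were measured, namely KDR, NOS3 and THBD, and 2 of them were called lower on day 1 and 3 on day 7 against sham. Their mean log2 signal was 8.81 to 8.93 in sham, 7.46 to 7.68 on day 1 and 6.30 to 6.63 on day 7. KDR was not well above background on any graft array, and these means include its signal there. THBD changed by -0.14 on day 1 against sham (limma adjusted p = 0.164) and was not called. Of 8 smooth muscle markers 3 were measured (ACTA2, MYH11 and DES), with a mean of 14.78 to 16.12 in sham, 11.32 to 11.37 on day 1 and 11.67 to 12.05 on day 7, and 2 were called lower in each comparison with sham. The smooth muscle markers differed among themselves after day 1. ACTA2, the smooth muscle actin of the vein wall, measured 18.20 in sham, 13.06 on day 1 and 17.71 on day 7. The smooth muscle myosin gene MYH11 (16.67, 11.34 and 10.18) was lowest on day 7. So was the desmin gene DES by its brightest probe (11.49, 9.64 and 7.69). Their changes from day 1 of -1.16 and -1.94 were not called (limma adjusted p = 0.0517 and 0.1). DES had 2 kept probes, and the other one did not follow this course. It was called lower on day 1 against sham (-6.84) and changed by 0.53 from day 1 to day 7, which was not called.

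Leukocyte markers went the other way. Of 8 listed 4 were measured (CD14, CD3E, CYBB and MSR1), of which 3 were called higher on day 1 and 4 on day 7 against sham. Their mean was 7.68 to 8.32 in sham, 11.74 to 11.75 on day 1 and 12.75 to 12.83 on day 7. Of 6 fibroblast and matrix markers 3 were measured (DCN, LUM and POSTN), with a mean of 16.41 to 17.10 in sham, 12.96 to 12.98 on day 1 and 16.52 to 16.55 on day 7, and 3 were called lower on day 1 and 1 on day 7 against sham. Of 5 adipocyte markers 2 were measured (ADIPOQ and LEP), with a mean of 6.88 to 7.76, 3.99 to 4.06 and 4.80 to 4.86 in the same order, and ADIPOQ was called lower at both times. It was not well above background on any day 1 array.

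The genes whose course was nearest to BMP2 and FGF2 were found by the root mean square difference of log2 signals centred on the sham mean, over the 8 samples and 2000 other named genes. Each gene was read by its kept probe with the highest mean signal only, A_04_P000297 for BMP2 and A_04_P004865 for FGF2. For BMP2 they were LOC100355211 at 0.19, the kinesin gene KIF21A at 0.36 and CAPS, which encodes calcyphosine, at 0.37. LOC100355211 changed by -1.58 on day 1 and by -3.73 on day 7 against sham. For FGF2 the nearest was THBD at 0.11, which encodes the endothelial anticoagulant receptor thrombomodulin, followed by GASK1B at 0.14 and the integrin subunit gene ITGB8 at 0.17. THBD changed by -0.14 on day 1 and by -1.26 on day 7 against sham, beside -0.23 and -1.29 for A_04_P004865. That probe changed least of the FGF2 probes against sham. The others changed by -0.71 to -0.37 on day 1 and by -2.25 to -1.65 on day 7, and their nearest genes were not sought. Between these probes of BMP2 and FGF2 themselves the difference was 1.57.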

How the data were processed

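Vein RNA from 16 rabbit samples was measured on Agilent one-colour arrays. Each array file that the authors deposited holds the background-subtracted intensity per spot from Agilent Feature Extraction (version 11.0.1.1 in the file headers, 9.1 in the submitters' processing notes). The authors also deposited a matrix of log2 values, made in GeneSpring by quantile normalization and a filter on low intensity.

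Here the log2 of the spot intensity was quantile-normalized over all arrays. Flagged spots (non-uniform or outlying) were treated as missing, which affected 1.46% of spots on at least 1 array. Spots of the same probe were then averaged. A probe entered the tests if at least 1 group had it well above background on all its arrays. Arrays differing by less than the spread between spots, as given by 50 replicated probes, were averaged. Gene names came from RefSeq accessions, looked up in gene records of the assembly mOryCun1.1 (3368 probes), or from gene identifiers in the part of the authors' table that was readable here (2816 probes). The assembly served for names only, and no coordinates are given.

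lmFit and eBayes of limma 3.58.1 (R 4.3.3) were fitted to the 3 groups together over all kept probes, and p-values are two-sided. Differences between probes were fitted in the same way to all pairs on the array. The fit was checked on simulated data, in which 200 of 35187 probes were changed. For day 7 against sham it recovered 64 of 93 probes with a log2 change of 2 and 100 of 107 with a change of 3, and called 5 unchanged probes. The simulated samples varied independently and few probes were changed, whereas 11756 of 35716 were called in the data. It therefore does not check the normalization under so many changes, or the sham pairs. Plots were made with matplotlib 3.10.9 and pandas 2.3.3 under Python 3.11.15.

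The genes named are BMP2 and FGF2 with all probes, up to 6 called genes of a pathway list per comparison by size of change, the receptors FGFR1, BMPR1A, BMPR1B and BMPR2, and the 3 genes nearest in course to each member. ACVR2A, MAP2K1 and DUSP6 were named after their values were seen, and so were the markers described singly. The members and the lists were chosen with earlier results of these data known. The alternatives were 16 separate arrays, the authors' values, scaling to the 75th percentile, normexp with an offset of 50, other filters, flagged spots kept, 1 probe per gene, the compared groups only, sham arrays in pairs, scan or replicate number as a block, and each sample left out. The use of either sham pair alone was added after seeing the data. The number of arrays limits the precision, and no counting error applies. Sequences of probes, promoters and proteins were not used here.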

Additional observations from a re-analysis of the deposited data

Results flagged for a closer look

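Both genes were marked because their effects against sham differed between the time points. For BMP2 (A_04_P000297) the effect on day 7 minus that on day 1 was -2.10 in log2 signal, and for FGF2 (A_04_P004865) it was -1.05. Each is the test of day 7 against day 1 in the same limma model, with adjusted p of 3.52e-04 and 6.18e-04. No sham sample of the 13 probes stood alone beyond the 95% critical value of Dixon's test, whose ratio was 0.01 to 0.73 in the sham group. That test looks for 1 sample apart from the rest, so that it could not mark the sham pairs described above.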

How the results depend on the processing

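All 8 BMP2 probes were called in each comparison under every alternative that kept all probes, except that normexp left out 1 on day 7 against day 1. With 1 probe per gene 1 of 1 was called for BMP2 in each comparison, and 1 of 1 for FGF2 on day 7 against sham and against day 1. With normexp 0 FGF2 probes were called in these 2 comparisons (medians -0.79 and -0.60). No FGF2 probe was called on day 1 under any alternative, and percentile scaling gave 0.022 for A_04_P004865. Leaving out each sample kept BMP2 at 8 to 8 and FGF2 at 5 to 5 on day 7 against sham, and at 4 to 5 on day 7 against day 1. Of the 11 pathway genes 7 were called on day 1 against sham, and 4 with normexp, while leaving out each sample gave 7 to 8. Over all probes, normexp reduced the calls from 17816 to 10458 on day 1 against sham, from 11756 to 6918 on day 7 against sham and from 14280 to 7324 between the graft times.

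Probe differences depended more on the setting. Of 11 pairs, 4 passed on day 1 against sham, where 28.4% of all pairs on the array did. On day 7 against sham 9 of the 11 passed, where 20.0% did, and on day 7 against day 1 it was 7, where 26.1% did. Percentile scaling gave 2 and 5 in the first and the second comparison, averaged sham pairs also gave 2 and 5, and sham arrays 3 and 4 alone gave 1 in the first. Leaving out each sample gave 1 to 5 on day 1 against sham (1 without day 1 sample 2, 2 without day 1 sample 1), 3 to 8 on day 7 against sham (3 without day 7 sample 1, 5 without day 7 sample 2) and 4 to 7 on day 7 against day 1 (4 without day 1 sample 1). Percentile scaling turned A_04_P000297 minus A_04_P073526 on day 7 against sham to 0.082, and normexp turned A_04_P004865 minus A_04_P004861 on day 7 against day 1 to -0.027. The cause was not tested. From day 1 to day 7, percentile scaling moved the median of all probes from -0.03 to -0.41 and the lower share of calls from 47.2% to 67.9%, and BMP2 lay -2.14 to -1.37 from that median, beside -2.40 to -1.28.

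Replicate numbers did not pair the arrays (correlations of deviations -0.014 to 0.047 in 14 pairs). With the replicate block, 8, 8 and 8 BMP2 probes and 0, 5 and 5 FGF2 probes were called in the comparisons of day 1 with sham, of day 7 with sham, and of the grafts with each other. The median raw intensity of FGF2 probes, 39.6 to 212 units, limits what can be said of them after background correction.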
